A study of Mus musculus with 6 samples.

Results

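Mural cells are the cells wrapped around the endothelium of blood vessels: pericytes on capillaries and smooth muscle cells on arterioles and venules. Endothelial cells release platelet-derived growth factor B, which recruits and keeps mural cells through the receptor *Pdgfrb*, and Notch signals from the endothelium act on mural cells through *Notch3*. In the retina, mural cells set vessel diameter and are needed for the barrier between blood and neural tissue. The 10 genes described here are known markers of these cells and were taken by their symbols. *Pdgfrb*, *Rgs5*, *Cspg4*, *Kcnj8*, *Abcc9*, *Notch3* and *Anpep* are grouped here as pericyte genes. *Acta2*, *Tagln* and *Myh11* belong to the contractile machinery of smooth muscle. Whether a gene of either group marks only that cell type was not tested. All 10 were found in the count table, which holds 31169 genes.

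The study sequenced poly(A) RNA of retina from C57BL/6 mice that had an injection into the front chamber of the eye at 1 month of age. One group received saline and the other microbeads 15 μm in diameter, which raise the pressure inside the eye. Retinas were taken 4 weeks later, at 2 months of age, and each group had 3 libraries. The labels do not state whether the libraries of a group came from separate animals, so the p-values measure the spread between these libraries. The comparison asks how transcript levels in the retina differ after microbead injection.

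Library totals were 36085737, 46481382 and 37546884 counts in saline replicates 1 to 3 and 19834366, 13574949 and 15647739 in microbead replicates 1 to 3, so every saline library was deeper than every microbead library. The titles of the 6 samples run in 1 series, but the library names in the sample descriptions follow 1 pattern in saline and another in microbead. The labels do not say what the patterns stand for, and a difference in preparation or sequencing between them could not be told apart from the treatment. Levels are given as CPM, counts per 1000000 of the library size after TMM scaling. Of markers of retinal cells, *Glul* of Müller glia stood at 2001 to 4734 CPM and *Nrl*, a transcription factor of rod photoreceptors, at 757 to 2051 CPM in the 6 libraries. Among the mural cell genes, *Rgs5* had 1226 to 6873 counts and *Pdgfrb* 220 to 1466 per library, and *Tagln* had 0 to 20. A count of 3 was worth 0.0621 CPM in the deepest library and 0.216 CPM in the shallowest, a limit that covers counting error only.

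Of the 10 mural cell genes, 2 fell after microbead injection at an adjusted p under 0.05 in edgeR's quasi-likelihood test, the receptors *Pdgfrb* and *Notch3*, and 0 rose. Over all 17707 genes tested, 12.8% passed this threshold in either direction and 6.31% passed it as lower. All 10 mural cell genes passed the filter on low counts and had a negative log2 fold change, as did 9221 of all genes tested. Without microbead replicate 3, 8 of the 10 were negative. The median log2 fold change was −0.65 over the 10 genes and −0.031 over all genes tested. In 3 of the 10, *Pdgfrb*, *Notch3* and *Cspg4*, every microbead library was below every saline library, which was true of 18.9% of all genes tested. In whole retina, fewer mural cells and less RNA per mural cell cannot be told apart. Leaving out 1 library at a time, edgeR called 2 of 9 genes tested, *Pdgfrb* and *Cspg4*, with saline replicate 1 left out, beside 15.1% of all genes. It called 1 of 9, *Notch3*, with saline replicate 3 left out (8.42% of all genes) and 1 of 10, *Pdgfrb*, with microbead replicate 2 left out (4.01%). It called 0 with saline replicate 2, microbead replicate 1 or microbead replicate 3 left out. Over all genes, the number past the threshold ran from 46 without microbead replicate 3 to 2621 without saline replicate 1. Where it called 0, an unadjusted p under 0.05 was found in 3 of 9 genes tested with saline replicate 2 left out (23.2% of all genes), in 5 of 10 with microbead replicate 1 left out (28.5%) and in 3 of 10 with microbead replicate 3 left out (23.4%). With all 6 libraries, 3 of the 10 genes and 31.4% of all genes had an unadjusted p under 0.05. DESeq2 called 3 of the 10 genes, against 20.2% of all genes tested, and limma-voom called 2, against 12.5%.

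**Figure D1:**
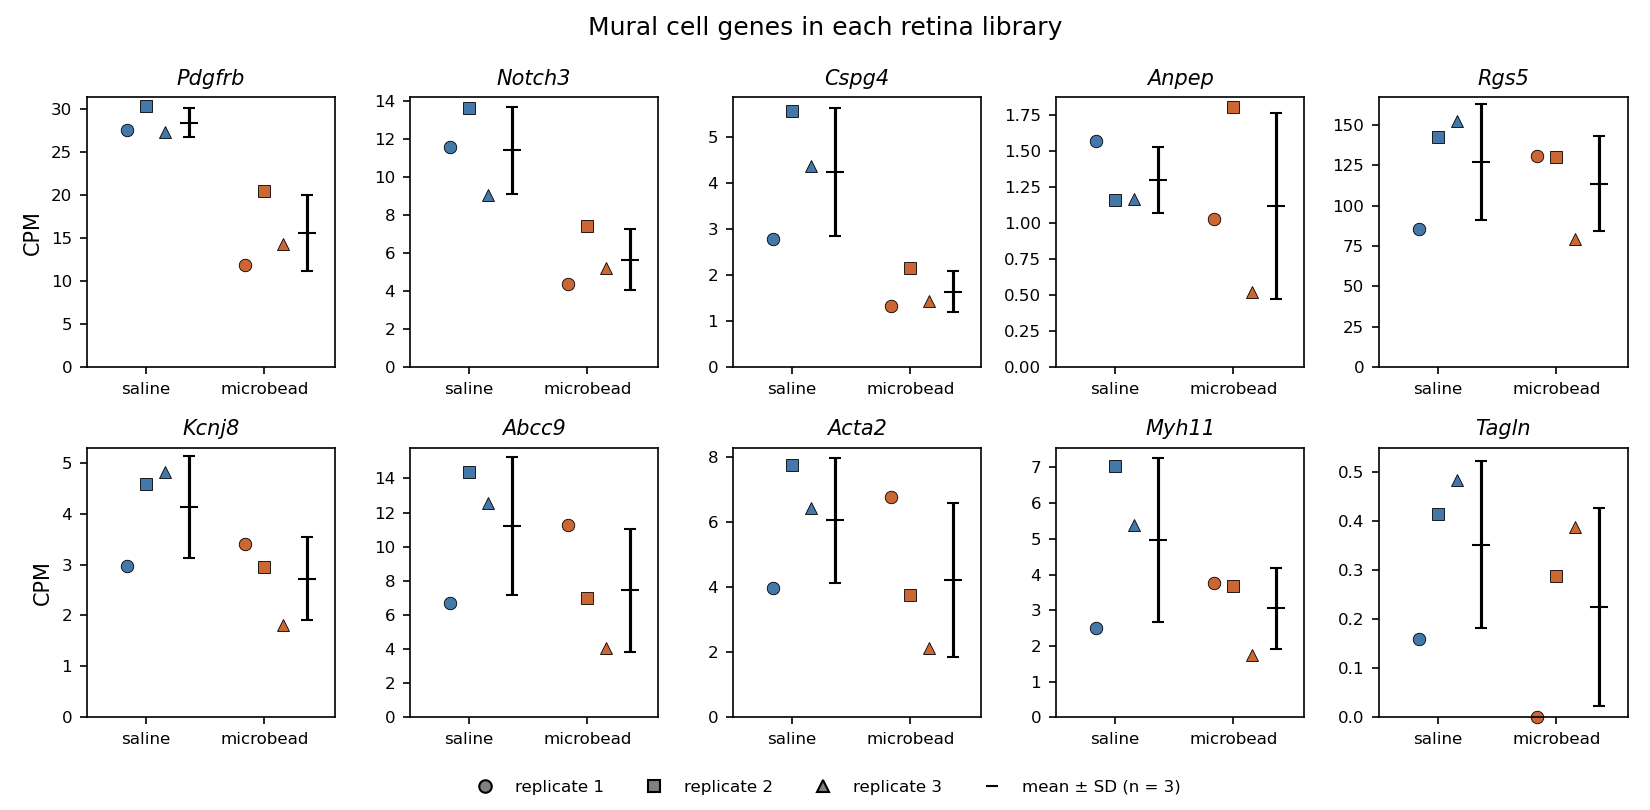
CPM of each mural cell gene (vertical axis, linear from 0, a separate scale for each gene) in the 3 saline and 3 microbead libraries; each point is 1 library, its shape gives the replicate number, and the bar is the mean ± SD. *Pdgfrb*, *Notch3* and *Cspg4* separate the groups, whereas *Rgs5* in saline replicate 1, at 85.6 CPM, lies near microbead replicate 3, at 79.6 CPM.

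*Pdgfrb* encodes the receptor for platelet-derived growth factor B and lies at chr18:61045150-61085061 on the plus strand (GRCm38). It stood at 27.6, 30.4 and 27.3 CPM in saline replicates 1 to 3 and at 11.9, 20.5 and 14.3 CPM in microbead replicates 1 to 3. The saline libraries lay close together and all above the highest microbead library, replicate 2. On average it was at 28.4 ± 1.69 CPM after saline (SD, n = 3) and at 15.6 ± 4.42 CPM after microbeads (SD, n = 3). Its log2 fold change was −0.87 with a standard error of 0.23 and an edgeR adjusted p of 0.0377, a change of −45.4%. The edgeR adjusted p was above 0.05 without saline replicate 2 (0.128), saline replicate 3 (0.0561), microbead replicate 1 (0.0863) or microbead replicate 3 (0.139), and log2 fold changes in the 6 fits with a library left out ran from −1.10 to −0.71. Over the other alternatives its adjusted p ran from 0.00502 to 0.0544.

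*Notch3*, the Notch receptor of mural cells, lies at chr17:32120820-32166852 on the minus strand. Its level was 11.6, 13.6 and 9.03 CPM in the saline libraries and 4.37, 7.43 and 5.19 CPM in the microbead libraries. Here too the groups did not overlap, and microbead replicate 2 was again the highest of its group. After saline the average was 11.4 ± 2.29 CPM (SD, n = 3) and after microbeads 5.66 ± 1.58 CPM (SD, n = 3). A log2 fold change of −1.02 was found, with a standard error of 0.29 and an edgeR adjusted p of 0.0477. This call was close to the threshold: with upper-quartile scaling the adjusted p of edgeR was 0.0562, and with library sizes taken without mitochondrial genes it was 0.0506. Among alternatives that keep all libraries the lowest was 0.0116 and the highest 0.0637. The adjusted p of edgeR was also above 0.05 without saline replicate 1 (0.0580), saline replicate 2 (0.179), microbead replicate 1 (0.112), microbead replicate 2 (0.0564) or microbead replicate 3 (0.157), and was 0.0415 without saline replicate 3. Exons of an antisense transcript, *Gm17276*, cover 6.03% of the exon bases of *Notch3*, and whether the counting used strand was not stated.

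The proteoglycan NG2 is encoded by *Cspg4*, at chr9:56865033-56899870 on the plus strand, and is carried by pericytes and, in brain, by precursors of oligodendrocytes. The counts behind it were low, at 105, 269 and 153 in the saline libraries and 26, 30 and 22 in the microbead libraries. These correspond to 2.79, 5.57 and 4.36 CPM and to 1.34, 2.16 and 1.43 CPM. The lowest saline library, replicate 1, was above the highest microbead library. The mean was 4.24 ± 1.40 CPM (SD, n = 3) after saline and 1.64 ± 0.454 CPM (SD, n = 3) after microbeads. The log2 fold change of −1.37, with a standard error of 0.40, was the largest in size of the 10 genes, and its edgeR adjusted p of 0.0508 missed the threshold. With DESeq2 *Cspg4* had an adjusted p of 0.0170, and the range over alternatives that keep all libraries was 0.0170 to 0.0714. The adjusted p of edgeR was also under 0.05 with no filter on low counts (0.0244), with a minimum of 10 counts in each library (0.0394) and without saline replicate 1 (0.0265), and it ran to 0.207 in the other fits with a library left out.

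*Anpep* encodes aminopeptidase N, an enzyme on the surface of pericytes that myeloid cells and fibroblasts also carry. It lies at chr7:79821803-79861059 on the minus strand. Its level was 1.57, 1.16 and 1.17 CPM after saline and 1.03, 1.80 and 0.519 CPM after microbeads, and the microbead libraries held both the highest and the lowest value. The log2 fold change was −0.22 with a standard error of 0.52 and an edgeR adjusted p of 0.805. It was −0.71 without microbead replicate 2 and −0.071 without saline replicate 1. Its sign was not stable, at 0.11 without microbead replicate 3 and 0.059 with all libraries thinned to the smallest total.

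*Rgs5*, a regulator of G protein signalling and the most abundant of the 10 genes, lies at chr1:169655501-169695813 on the plus strand. It stood at 85.6, 142 and 152 CPM in saline replicates 1 to 3 and at 131, 130 and 79.6 CPM in microbead replicates 1 to 3. One library of each group was low, saline replicate 1 and microbead replicate 3, and the other 4 libraries lay between 130 and 152 CPM. The group averages, 127 ± 36 CPM after saline and 113 ± 29.4 CPM after microbeads (SD, n = 3 each), differed by less than the spread within either group. The log2 fold change of −0.16, with a standard error of 0.27, had an edgeR adjusted p of 0.721 and turned to 0.032 without microbead replicate 3. It was −0.38 without saline replicate 1, −0.071 without saline replicate 2 and −0.0089 without saline replicate 3, and −0.28 and −0.25 without microbead replicates 1 and 2.

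The pore of the ATP-sensitive potassium channel of mural cells, Kir6.1, is encoded by *Kcnj8*, and its regulatory subunit, SUR2, by *Abcc9*. The genes are neighbours on the minus strand, at chr6:142564837-142571614 and chr6:142587862-142702315, with 16247 bases between them. *Kcnj8* was measured at 2.97, 4.58 and 4.82 CPM after saline and at 3.39, 2.96 and 1.82 CPM after microbeads. *Abcc9* was measured at 6.69, 14.4 and 12.6 CPM after saline and at 11.3, 7.0 and 4.09 CPM after microbeads. In both genes saline replicate 1 was the lowest saline library and lay inside the range of the microbead libraries, of which replicate 3 was the lowest. The log2 fold changes were −0.60 ± 0.37 (SE) for *Kcnj8* and −0.59 ± 0.40 (SE) for *Abcc9*, with edgeR adjusted p of 0.300 and 0.348. With microbead replicate 3 left out they were −0.38 and −0.30. For *Abcc9* the value was also −1.02 without microbead replicate 1 and −0.37 without saline replicate 2. Per kilobase of exon, the level of *Kcnj8* over that of *Abcc9* was 1.46, 1.05 and 1.26 in the saline libraries and 0.990, 1.39 and 1.46 in the microbead libraries. The means of this ratio, 1.26 ± 0.207 (SD, n = 3) and 1.28 ± 0.253 (SD, n = 3), differed by less than their spread.

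Smooth muscle actin is encoded by *Acta2*, at chr19:34241090-34255590 on the minus strand, and smooth muscle myosin heavy chain by *Myh11*, at chr16:14194535-14291372 on the minus strand. *Acta2* was measured at 3.98, 7.77 and 6.44 CPM after saline and at 6.79, 3.75 and 2.14 CPM after microbeads. The values of *Myh11* were 2.49, 7.04 and 5.39 CPM after saline and 3.75, 3.68 and 1.75 CPM after microbeads. Saline replicate 1 was again the lowest of its group and microbead replicate 3 the lowest of all, so that the groups overlapped in both genes. The log2 fold changes were −0.51 ± 0.44 (SE) for *Acta2* and −0.70 ± 0.45 (SE) for *Myh11*, with edgeR adjusted p of 0.455 and 0.321. These values moved with single libraries. For *Acta2* leaving out microbead replicate 1 gave a log2 fold change of −1.05, leaving out saline replicate 2 gave −0.30 and leaving out microbead replicate 3 gave −0.21. For *Myh11*, leaving out saline replicate 1 gave −1.02, leaving out saline replicate 2 gave −0.37 and leaving out microbead replicate 3 gave −0.43. *Tagln*, which encodes the actin-binding protein transgelin, lies at chr9:45929619-45936058 on the minus strand. It had 6, 20 and 17 counts after saline and 0, 4 and 6 counts after microbeads, and the 0 counts of microbead replicate 1 allow up to 0.154 CPM. Its log2 fold change of −0.70 had a standard error of 0.94 and an edgeR adjusted p of 0.649, so that at this depth no difference could be detected. It was −0.059 without microbead replicate 1, the library with 0 counts, and −1.40 without microbead replicate 3. Exons of *Pcsk7* and *Gm48529* on the other strand cover 67.9% of the exon bases of *Tagln*, and its few reads cannot be assigned with certainty where the counting did not use strand.

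Across the 10 genes, saline replicate 1 was the lowest saline library in 7, and microbead replicate 3 was the lowest microbead library in 6. The genes with both were *Rgs5*, *Kcnj8*, *Abcc9*, *Acta2* and *Myh11*. In *Pdgfrb*, *Notch3* and *Cspg4*, microbead replicate 1 was the lowest and saline replicate 2 the highest of the 6. Saline replicate 2 was also the highest of the 6 in *Abcc9*, *Acta2* and *Myh11*. The ratio of *Notch3* to *Pdgfrb* per kilobase of exon was 0.285, 0.303 and 0.224 in the saline libraries and 0.248, 0.246 and 0.246 in the microbead libraries. The ratio of *Pdgfrb* to *Rgs5* per kilobase of exon was 0.267, 0.177 and 0.149 after saline and 0.0756, 0.131 and 0.149 after microbeads. Saline replicate 3 and microbead replicate 3 had the same ratio of *Pdgfrb* to *Rgs5* at this precision, although their *Pdgfrb* levels were 27.3 and 14.3 CPM.

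The levels of the 10 genes were compared with each other as CPM per kilobase of exon. After saline, *Rgs5* was the highest at 27.9 ± 7.91 (SD, n = 3), followed by *Pdgfrb* at 5.19 ± 0.308, and neither range overlapped the next in order. Then came *Acta2* at 2.76 ± 0.875, *Kcnj8* at 1.62 ± 0.394, *Notch3* at 1.41 ± 0.284, *Abcc9* at 1.34 ± 0.480 and *Myh11* at 0.655 ± 0.303, each overlapping its neighbour in the order. *Cspg4* at 0.355 ± 0.117 overlapped *Myh11* above it and *Anpep*, at 0.314 ± 0.0560, below it, and *Tagln* was the lowest at 0.177 ± 0.0861. After microbeads, *Rgs5* was again the highest at 25.0 ± 6.46 (SD, n = 3) with no overlap, but the range of *Pdgfrb*, with a mean of 2.84 ± 0.807, overlapped that of *Acta2*, with a mean of 1.92 ± 1.07.

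The summed level of the 10 genes was 145, 227 and 224 CPM in the saline libraries and 175, 179 and 111 CPM in the microbead libraries. On average the sum was 199 ± 46.3 CPM after saline and 155 ± 38.2 CPM after microbeads (SD, n = 3 each), a log2 ratio of −0.36, and the groups overlapped. *Rgs5* made up 63.7% of the summed CPM after saline. The sum of the other 9 genes was 59.8, 84.9 and 71.6 CPM after saline and 43.9, 49.6 and 31.6 CPM after microbeads, a log2 ratio of −0.79, with no overlap between the groups. *Rgs5*, left out here, had the smallest change of the 10 genes. *Pdgfrb*, *Notch3* and *Cspg4*, whose groups did not overlap, are part of this sum, so it is not a separate result. The ratio for the 10 genes ran from −0.54 without saline replicate 1 to −0.17 without microbead replicate 3. No test was run on these sums, since the genes were chosen with results of these data known.

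Signals that act on mural cells were taken from lists of their pathways. Of the 6 other ligands and receptors of the platelet-derived growth factor family, 1 passed the edgeR threshold, the ligand *Pdgfb*. It stood at 7.83, 7.11 and 7.35 CPM after saline and at 3.91, 3.89 and 3.57 CPM after microbeads, with little spread within either group. Its log2 fold change was −0.97 with a standard error of 0.26 and an edgeR adjusted p of 0.0396, beside −0.87 for its receptor *Pdgfrb*. The most abundant gene of this list, the receptor *Pdgfra* of other cell types, was measured at 3.02, 12.3 and 16.8 CPM after saline and 14.2, 11.5 and 13.2 CPM after microbeads (log2 fold change 0.27, edgeR adjusted p = 0.741). Of the 15 other Notch pathway genes, 2 fell in the same test, 13 had a negative log2 fold change and the median was −0.41. Of all genes tested, 6.31% fell, 52.1% had a negative log2 fold change and the median was −0.031. *Notch2*, a receptor of the same family as *Notch3*, stood at 41.6, 41.3 and 46.9 CPM after saline and at 18.9, 31.4 and 23.8 CPM after microbeads (log2 fold change −0.81, edgeR adjusted p = 0.0376). As in *Notch3*, microbead replicate 1 was the lowest of the 6 libraries and replicate 2 the highest of its group. *Hes5*, a transcription factor switched on by Notch, had a mean of 13.2 ± 7.55 CPM (SD, n = 3) after saline and 4.22 ± 1.72 CPM (SD, n = 3) after microbeads (log2 fold change −1.64, edgeR adjusted p = 0.0442). Without saline replicate 3, its highest library at 21.9 CPM, the log2 fold change of *Hes5* was −1.07 (edgeR adjusted p = 0.104). The ligand *Jag1*, the most abundant gene of this list, had a log2 fold change of −0.13 with an edgeR adjusted p of 0.787. Of *Pdgfb*, *Notch2* and *Hes5*, edgeR called *Notch2* and *Hes5* without saline replicate 1 and *Notch2* without microbead replicate 2. It called 0 without saline replicate 2, saline replicate 3, microbead replicate 1 or microbead replicate 3. *Pdgfb* missed the threshold in all 6 of these fits, with edgeR adjusted p of 0.0591, 0.130 and 0.0680 without saline replicates 1 to 3 and 0.0721, 0.0869 and 0.128 without microbead replicates 1 to 3. With limma-voom, *Pdgfb* and *Notch2* were called and *Hes5* was not (adjusted p = 0.0857).

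Mural cells share a basement membrane with the endothelium. Of all genes tested, 6.31% fell in the edgeR test, 52.1% had a negative log2 fold change and the median was −0.031. Of 17 endothelial markers, 4 fell in the edgeR test, 14 had a negative log2 fold change and the median was −0.59. Among these 4, the 3 with the largest change were *Vwf*, which encodes von Willebrand factor (log2 fold change −1.73, edgeR adjusted p = 0.0227), *Esam*, which encodes an adhesion molecule of endothelial junctions (−1.01, 0.0249), and *Cldn5*, which encodes a tight junction protein of the blood-retina barrier (−0.94, 0.0297). The other, named after its values were seen, was the receptor gene *Flt1* (−0.93, 0.0310). The summed level of the 17 markers was 761, 766 and 1068 CPM after saline and 520, 655 and 518 CPM after microbeads, with no overlap between the groups. The most abundant of them, the receptor *Kdr*, had a log2 fold change of −0.50 with an edgeR adjusted p of 0.199. Whether the level of endothelial RNA has a part in the lower *Pdgfrb* and *Notch3* was not tested.

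Among 13 angiopoietin and TGF-beta signals of vessel maturation, 1 gene fell in the edgeR test, the endothelial receptor *Tie1*, from 7.46 ± 1.03 CPM (SD, n = 3) to 3.19 ± 0.456 CPM (SD, n = 3), with a log2 fold change of −1.23 and an adjusted p of 0.0262. In this list 12 of 13 log2 fold changes were negative, with a median of −0.40, beside 52.1% and −0.031 over all genes tested. Its most abundant gene, *Tgfb2*, had a log2 fold change of −0.31 and an edgeR adjusted p of 0.220. Of 14 vascular basement membrane genes, 1 fell, the laminin chain *Lamb2*, from 31.9 ± 7.99 CPM (SD, n = 3) to 14.6 ± 3.60 CPM (SD, n = 3), with a log2 fold change of −1.13 and an edgeR adjusted p of 0.0253. The median of this list was −0.35, and *Agrn*, its most abundant gene, had a log2 fold change of 0.36 with an edgeR adjusted p of 0.403. As lower, edgeR called 6.31% of all genes tested. Of the 6 genes that fell in these lists and among the endothelial markers, edgeR called 6 without saline replicate 1 and 3 without microbead replicate 2. It called 2 with saline replicate 3 left out and 1 with saline replicate 2 left out. It called 0 without microbead replicate 1 or microbead replicate 3. Limma-voom called 6 of the 6.

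**Figure D2:**
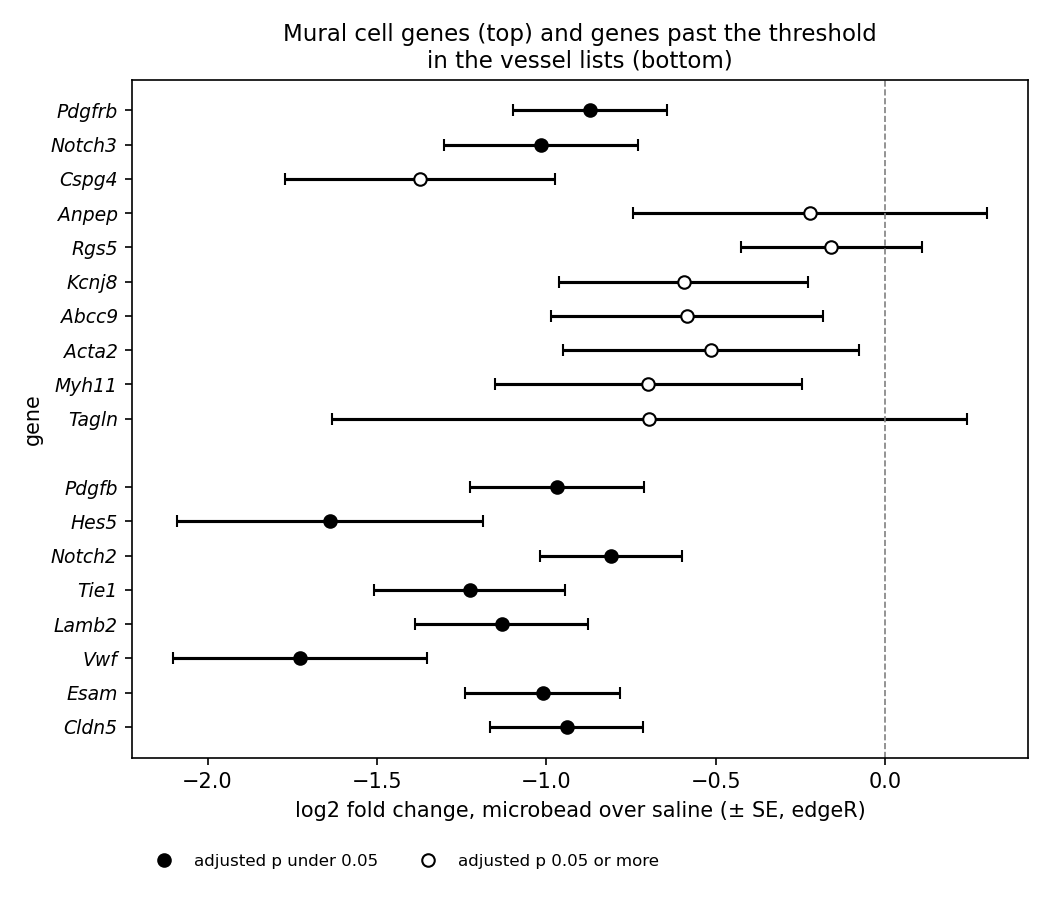
Log2 fold change of microbead over saline (horizontal axis, bars ± SE from edgeR, n = 3 libraries per group) for the 10 mural cell genes in the upper block and for genes past the threshold in the vessel lists in the lower block (up to 3 per list). Filled points have an adjusted p under 0.05; *Pdgfrb* at −0.87 and *Notch3* at −1.02 are the filled points of the upper block, and *Rgs5* at −0.16 lies nearest to 0.

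Other genes of mural cells and of contraction were taken from lists as well. Of 18 other mural cell genes, 17 were tested, 0 passed the edgeR threshold, 4 had an unadjusted p under 0.05, and 1 was called by DESeq2 and 0 by limma-voom. Over all genes tested, 31.4% had an unadjusted p under 0.05, DESeq2 called 20.2% and limma-voom 12.5%, shares above those of this list and of the next. In this list 13 of the 17 log2 fold changes were negative, with a median of −0.24. Its most abundant gene, *Vtn*, which photoreceptors of the retina also express, had a log2 fold change of −0.14 (edgeR adjusted p = 0.633), and *Tbx18* did not pass the filter on low counts. Of 25 genes of the contractile apparatus and its regulators, 22 were tested, 0 passed the edgeR threshold, 2 had an unadjusted p under 0.05, and DESeq2 and limma-voom called 0. In this list 8 log2 fold changes were negative and 14 positive, with a median of 0.049, beside −0.51, −0.70 and −0.70 for *Acta2*, *Myh11* and *Tagln*. Its most abundant gene, the myosin light chain *Myl6* of many cell types, had a log2 fold change of 0.61 and an edgeR adjusted p of 0.109, and *Cnn1*, *Actg2* and *Kcnmb1* did not pass the filter. The ATP-sensitive potassium channel of neurons and endocrine cells uses other subunits, and neither of these 2 genes passed the threshold in edgeR, DESeq2 or limma-voom or had an unadjusted p under 0.05. Of these, *Abcc8* had a log2 fold change of 0.38 (edgeR adjusted p = 0.304), beside −0.59 for *Abcc9*. Over the 8 lists of vessel and mural cell genes together, 9 of 106 tested genes passed the edgeR threshold, all 9 as lower, which is 8.49%, beside 12.8% in either direction and 6.31% as lower over all genes tested. A negative log2 fold change was found in 76 of the 106, beside 52.1% of all genes tested.

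Markers of other cells were read beside these results. Myeloid cells and fibroblasts can carry *Anpep*. The 8 myeloid markers summed to 105, 38.2 and 53.4 CPM after saline and 60.2, 65.6 and 20.2 CPM after microbeads. Saline replicate 1 was the highest library in this sum and microbead replicate 3 the lowest. Of the 7 tested, 0 passed the edgeR threshold, 3 had an unadjusted p under 0.05, and DESeq2 called 3 and limma-voom 0, beside 31.4%, 20.2% and 12.5% of all genes. The median log2 fold change was −0.50, and the most abundant was *Csf1r* (log2 fold change −1.22, edgeR adjusted p = 0.0542). The 6 fibroblast and sclera markers summed to 11.6, 18.9 and 30.3 CPM after saline and 19.0, 20.7 and 18.3 CPM after microbeads, 0 of the 5 tested passed the threshold in edgeR, DESeq2 or limma-voom or an unadjusted p under 0.05, and *Lum* had at most 3 counts in any library. The most abundant fibroblast marker was *Pdgfra*, and the median log2 fold change of the 5 was −0.49. The part of these cells in the level of *Anpep* was not tested.

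The 7 pigment epithelium markers summed to 9.07, 35.7 and 159 CPM after saline and 96.3, 85.3 and 77.1 CPM after microbeads, with *Ttr* the most abundant. Saline replicate 1, the lowest saline library for *Rgs5*, *Kcnj8*, *Abcc9*, *Acta2* and *Myh11*, was also the lowest in this sum, and the part of the pigment epithelium in those values was not tested. None of the 7 passed the threshold in edgeR, DESeq2 or limma-voom, 0 had an unadjusted p under 0.05, and the median log2 fold change was 0.78. The 5 red cell markers, which follow the blood left in vessels, summed to 18.3, 41.5 and 16.1 CPM after saline and 38.8, 10.9 and 19.3 CPM after microbeads. None of the 5 passed the threshold in these 3 tests or an unadjusted p under 0.05, and the most abundant was *Hbb-bs* (log2 fold change 0.042, edgeR adjusted p = 0.967). Their median log2 fold change was −0.45.

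Of 7 oligodendrocyte lineage markers in the table, 6 were tested and 2 fell in the edgeR test, *Cnp* (log2 fold change −1.19, adjusted p = 0.0190) and *Mbp* (−0.64, 0.0335), the most abundant of the list. Of the 6, 3 had a negative log2 fold change, with a median of 0.094. Among all genes tested, edgeR called 12.8% in either direction and 6.31% as lower, and 52.1% had a negative log2 fold change. The sum of the markers was 89.1, 66.4 and 75.8 CPM after saline and 52.7, 50.3 and 49.7 CPM after microbeads, and *Olig1* was not analysed here. Of the transcription factors of this list, named after their values were seen, *Sox10* had 3 to 27 counts per library and *Olig2* had 1 count in the 6 libraries together. Of 8 skeletal muscle markers, which share contractile genes with smooth muscle, 3 were tested and 1 rose in the edgeR test, *Mylpf* (log2 fold change 1.31, adjusted p = 0.0223). *Mylpf* was also the most abundant of this list, whose sum was 5.65, 5.28 and 5.64 CPM after saline and 9.30, 15.9 and 9.93 CPM after microbeads. Of the 5 genes of this list that were not tested, the myosin heavy chain *Myh4* of fast muscle had at most 3 counts in any library and *Myh2* at most 4. In microbead replicate 2, *Myh1* had 28 counts, *Tnnt3* 34 and *Tnni2* 13, against at most 5, 2 and 8 in any other library. Microbead replicate 2 was also the highest microbead library for *Pdgfrb*, *Notch3* and *Cspg4*. The part of these cells in the levels of *Pdgfrb*, *Notch3* and *Cspg4* and of the contractile genes was not tested.

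Astrocytes and Müller glia contact the vessels beside pericytes. Of 4 astrocyte markers, 1 fell in the edgeR test, *Aldh1l1* (log2 fold change −1.23, adjusted p = 0.0307), while *Gfap*, the most abundant, had a log2 fold change of 0.31 (adjusted p = 0.393). The log2 fold change was positive in 3 of the 4, with a median of 0.35. All 8 Müller glia markers had a negative log2 fold change, with a median of −0.40. Of these 8, 3 fell in the same test, *Sox9* (−1.46, 0.0373), *Crym* (−1.41, 0.0387) and *Dkk3* (−1.03, 0.0242). *Glul*, the most abundant, had a log2 fold change of −0.31 (adjusted p = 0.491). Limma-voom called 1 of the 8 Müller glia markers, against 12.5% of all genes. Over all genes tested, edgeR called 12.8% in either direction and 6.31% as lower, and 52.1% had a negative log2 fold change. The values of *Sox9* and *Crym* moved with 1 high saline library each: *Sox9* was at −0.88 (edgeR adjusted p = 0.0573) without saline replicate 3, and *Crym* at −0.82 (0.0428) without saline replicate 1. The sums were 93.7, 53.2 and 73.9 CPM after saline and 66.3, 78.5 and 67.5 CPM after microbeads for astrocytes, and 4029, 5362 and 8005 CPM against 4489, 4460 and 3872 CPM for Müller glia. Of 5 rod markers, 1 fell in the edgeR test, *Nrl* (log2 fold change −0.97, adjusted p = 0.0192). The log2 fold change was negative in 4 of the 5, with a median of −0.18. Their sums overlapped between the groups, at 58082, 56764 and 75341 CPM after saline and 58587, 50024 and 63272 CPM after microbeads. Of the 8 genes of other cell types that passed the threshold, edgeR called 8 without saline replicate 1, 6 without saline replicate 3, 4 without saline replicate 2 and 1 with microbead replicate 1 left out. It called 0 without microbead replicate 2 or microbead replicate 3. Limma-voom called 5 of the 8, not *Aldh1l1* (adjusted p = 0.0580), *Sox9* (0.0695) or *Crym* (0.0536). The part of these cells in the levels of the mural cell genes was not tested.

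Promoter sequences of RefSeq (GRCm38.p6) were found for 7 of the 10 genes, and *Pdgfrb*, *Tagln* and *Myh11* are only named. The CArG box, the motif bound by serum response factor in genes of smooth muscle, was found in its exact consensus form, on either strand, in 0 of the 7 windows and in 1.63% of all 32851 promoter windows of the same length. Forms in which 1 base may differ, counted after the sequences were seen, were found 2 times in *Acta2*, 2 times in *Cspg4* and 1 time in *Kcnj8*, thus in 3 of the 7 windows, and in 21.1% of all windows. Other motifs chosen after these sequences were seen were the GC box, GGGCGG or CCGCCC on the printed strand, and TATATA, which reads the same on both strands. The GC box was found in 4 of the 7, 4 times in *Notch3*, 4 in *Anpep*, 2 in *Cspg4* and 1 in *Abcc9*, and in 35.7% of all windows. TATATA was found in *Rgs5* and *Acta2* and in 5.67% of all windows. Below are the windows of *Notch3* and *Cspg4*, whose microbead libraries all lay under the saline libraries, and of *Rgs5* and *Acta2*, whose groups overlapped. Their shares of G and C were 70.0% for *Notch3*, 60.0% for *Cspg4*, 52.3% for *Rgs5* and 54.7% for *Acta2*, beside a median of 52.7% over all windows. Among the windows not shown, of genes whose groups also overlapped, they were 72.3% for *Anpep*, 65.7% for *Abcc9* and 53.3% for *Kcnj8*. Each window shown is printed on the strand of its gene, from chr17:32166841-32167140 (minus strand), chr9:56864854-56865153 (plus strand), chr1:169655251-169655550 (plus strand) and chr19:34255324-34255623 (minus strand) in that order, and capitals mark the GC box or TATATA.
Notch3: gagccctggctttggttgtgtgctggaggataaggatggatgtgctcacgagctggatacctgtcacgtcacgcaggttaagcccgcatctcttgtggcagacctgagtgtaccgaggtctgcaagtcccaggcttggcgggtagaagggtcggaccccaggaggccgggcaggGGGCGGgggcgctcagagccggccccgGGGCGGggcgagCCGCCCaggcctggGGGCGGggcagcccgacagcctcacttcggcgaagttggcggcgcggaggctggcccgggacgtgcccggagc
Cspg4: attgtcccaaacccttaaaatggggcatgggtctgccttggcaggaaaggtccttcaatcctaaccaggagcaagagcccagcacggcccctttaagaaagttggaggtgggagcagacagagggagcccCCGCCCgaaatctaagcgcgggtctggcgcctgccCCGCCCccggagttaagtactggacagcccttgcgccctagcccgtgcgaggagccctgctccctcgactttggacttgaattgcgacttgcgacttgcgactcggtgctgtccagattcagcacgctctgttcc
Rgs5: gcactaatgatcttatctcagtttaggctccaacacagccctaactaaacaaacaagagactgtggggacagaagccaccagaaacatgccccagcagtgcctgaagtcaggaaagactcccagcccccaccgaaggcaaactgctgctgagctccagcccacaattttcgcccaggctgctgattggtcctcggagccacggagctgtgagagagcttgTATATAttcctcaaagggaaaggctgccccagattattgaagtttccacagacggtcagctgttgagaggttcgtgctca
Acta2: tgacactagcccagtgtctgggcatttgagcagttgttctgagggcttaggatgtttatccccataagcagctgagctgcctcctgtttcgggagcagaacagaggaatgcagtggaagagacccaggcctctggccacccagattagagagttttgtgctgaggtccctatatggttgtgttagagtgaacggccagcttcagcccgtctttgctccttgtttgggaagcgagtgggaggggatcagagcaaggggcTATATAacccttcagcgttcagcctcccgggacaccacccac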

How the data were processed

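RNA of 3 saline and 3 microbead retina libraries was compared, grouped by the treatment in the labels. Per the processing notes, the authors aligned reads with STAR 2.5.3a to GRCm38.p5 and counted them with featureCounts 1.15.2. The deposited table gives counts of each gene in each library, not normalized, and the strand setting of the counting is not stated. Its 6 further columns, the authors' mean, fold changes, p-values and calls, were not used.

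Low counts were removed with filterByExpr (count 10, total 15), libraries were scaled by TMM, and edgeR 4.0.16 (R 4.3.3) gave two-sided quasi-likelihood tests. P-values were adjusted by Benjamini-Hochberg over all genes tested, with a threshold of 0.05. CPM are counts per 1000000 of the scaled library size, and fold changes are on the log2 scale. Depth per library and its floor are given with the results. Positions and exon lengths came from GENCODE vM21 (GRCm38), which holds 99.5% of the genes. The members and lists were chosen with earlier results of these data known, and lists were described by counts and medians.

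Genes named are the 10 mural cell genes and, from each other list, its most abundant gene and up to 3 genes past the threshold with the largest change. Genes noted for missing the filter, for at most 3 counts or as not analysed were named after their values were seen. Similar genes were taken from the 5 with the smallest root-mean-square difference in centred log2 CPM (prior count 2) among tested genes with a mean of 1 CPM or more. Some items that these rules select are not reported here.

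Other settings tried were RLE scaling, upper-quartile scaling, sizes without mitochondrial genes, no filter, 10 or more counts in each library, DESeq2 1.42.0, limma-voom (limma 3.58.1), a block for replicate number, thinning to the smallest total (1 draw), a 2-fold threshold and leaving out each library. The steps were tested on simulated data. Replicates differed by 20.1 times sampling noise or more (chi-square over degrees of freedom), and all libraries were kept.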

Additional observations from a re-analysis of the deposited data

How the results depend on the processing

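Of 10 mural cell genes, 2 passed the threshold. The count was 1 with upper-quartile scaling and with library sizes without mitochondrial genes, beside 12.5% and 12.6% of all genes. It was also 1 with more than 2-fold change added, and 0 to 2 of 9 or 10 tested with 1 library left out. It was 2 with RLE scaling, limma-voom and thinning (9 tested), beside 12.6%, 12.5% and 13.5% of all genes. It was 3 with no filter, with 10 or more counts in each library (8 tested) and with DESeq2, beside 11.9%, 15.0% and 20.2%. Over the other lists, 17 genes passed, against 29 with no filter, 26 with DESeq2, 13 with limma-voom, 11 with the 2-fold threshold and 0 to 18 with 1 library left out. Over all genes, 2261 of 17707 tested passed (12.8%), against 3720 of 31169 with no filter (11.9%) and 3582 with DESeq2 (20.2%). The number was 1248 with the 2-fold threshold and 46 to 2621 with 1 library left out (0.238% to 15.1%). With no filter the median log2 fold change of all genes was −0.23, and calls were lower in 59.4%, against 49.4% with the filter. The causes were not tested.

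The sign of the log2 fold change turned in *Rgs5* (−0.38 to 0.032 with 1 library left out, positive without microbead replicate 3) and in *Anpep* (−0.71 to 0.11 with 1 library left out, positive without microbead replicate 3, and 0.059 thinned). Over 144 refits of the 10 genes, 124 kept the direction and the side of the threshold, 13 lost a call, 4 gained one and 3 turned. All 13 losses were in the 2 called genes: *Notch3* lost the call in 8 refits and kept it in 7, and *Pdgfrb* lost it in 5 and kept it in 10. Over 240 refits of the called genes that the naming rule selects from the other lists, *Flt1* not among them, 160 kept both and 80 lost the call. *Tagln* was not tested with 10 or more counts in each library, after thinning or without any one saline library, and *Anpep* not with 10 or more counts in each library. The log2 ratio of the summed CPM of the 10 genes was −0.36 with all libraries and ran from −0.54 to −0.17 with 1 library left out. These shifts from −0.36 were smaller than the SD between replicates, 0.377 on the log2 scale.

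With the replicate number as a block, 0 of the 10 mural cell genes passed the threshold in edgeR (3 had an unadjusted p under 0.05, as did 29.5% of all genes), as did 4 of the genes of the other lists and 905 of all genes. Libraries with the same number share only that number: their deviations from the group means correlated at −0.0351, 0.136 and 0.00997 for replicates 1 to 3 over 17707 genes, and not every library correlated best with its own number.

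Depth limits *Tagln* (53 counts in all) and *Anpep* (209) most. Every microbead library was shallower than every saline library, with a ratio of median totals of 2.40.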

Other observations

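Over the 6 libraries, the genes with a pattern most like the mean of the 7 pericyte genes were *Lrtm1*, *Otop3*, *Fbxl8*, *Ptpn4* and *Nhs*, out of 15078 candidates. Their root-mean-square difference from that mean in centred log2 CPM ran from 0.0771 for *Lrtm1* to 0.104 for *Nhs*, against a median of 0.534 over all candidates. The pericyte genes themselves were farther from their own mean, from 0.191 for *Kcnj8* to 0.418 for *Anpep*. *Lrtm1* stood at 297, 372 and 359 CPM after saline and at 195, 270 and 148 CPM after microbeads, with a log2 fold change of −0.75 and an edgeR adjusted p of 0.0632.

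For the 3 contractile genes, the most similar included *Ankrd34b*, *Rgs7bp*, *Pde11a* and *Gm43252*, at differences from 0.0836 for *Ankrd34b* to 0.112 for *Gm43252*, against a median of 0.605. The contractile genes themselves differed from their own mean by 0.323 for *Myh11*, 0.513 for *Acta2* and 0.807 for *Tagln*, the last of these above that median, so the mean is not a pattern that the 3 genes share. *Ankrd34b* stood at 1.67, 3.87 and 3.36 CPM after saline and at 1.39, 2.31 and 1.36 CPM after microbeads, with saline replicate 1 low in its group. None of the similar genes named passed the edgeR threshold, with adjusted p from 0.0632 for *Lrtm1* to 0.350 for *Gm43252*.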
